A study of Rattus norvegicus with 4 samples.

Results

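The immediate-early transcription factors of the AP-1 and EGR families were followed in rat Sertoli cells cultured with cAMP, against untreated cells. They are 10 genes: the FOS relatives Fos, Fosb, Fosl1 and Fosl2, the JUN relatives Jun, Junb and Jund, the stress-responsive Atf3, and the zinc-finger factors Egr1 and Egr2. Every probe set that carried exactly 1 of these symbols in the array's annotation was taken, which gave 17 probe sets of the 31042 that are not controls, and 10 of 14217 named genes. The cells came from Sprague-Dawley rats 20 days old, were plated in serum-free Ham's F-12 medium, and were kept for 72 h with cAMP (2 arrays) or with no treatment (2 arrays). The labels do not say in what form or at what dose cAMP was given, nor when within the 72 h it was added. The labels call the arrays of a group biological replicates but do not say whether each had its own cell preparation. The p-values therefore reflect the spread among these 4 samples, part of which may be technical.

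AP-1 is a dimer of bZIP proteins, held together by a leucine zipper and bound to DNA through the basic region beside it. FOS proteins need a JUN partner, whereas JUN proteins can also pair with each other, and ATF3, a relative of CREB, can pair with JUN proteins. EGR proteins bind GC-rich DNA through zinc fingers and induce their own corepressors, the NAB proteins. Most are textbook immediate-early genes, switched on soon after a stimulus by factors already in the cell, whereas Jund is expressed constitutively in most cells. By the best-known routes, cAMP activates protein kinase A, which phosphorylates CREB at CRE sites, and MAP kinases activate the ternary complex factors that sit with SRF on CArG boxes. In Sertoli cells cAMP is the messenger of follicle-stimulating hormone, and the comparison asks how these genes stand at the end of a 72 h culture with the messenger.

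Promoter sequence was available for 7 of the 10 genes in the RefSeq table of build GRCr8. The 250 bases before the annotated start are given here for the called genes with an entry, Junb, Fosl2 and Egr1, and for Jund, the gene with the full palindromic CRE. Capitals mark matches on either strand to the CRE (TGACGTCA), its core (TGACG, which each full CRE holds once on each strand), the EGR site (GCGNGGGCG) or the CArG box. The windows are Junb at chr19:40080876-40081125 (plus strand), Fosl2 at chr6:30039270-30039519 (minus strand), Egr1 at chr18:26736828-26737077 (plus strand) and Jund at chr16:18769772-18770021 (minus strand).
Junb: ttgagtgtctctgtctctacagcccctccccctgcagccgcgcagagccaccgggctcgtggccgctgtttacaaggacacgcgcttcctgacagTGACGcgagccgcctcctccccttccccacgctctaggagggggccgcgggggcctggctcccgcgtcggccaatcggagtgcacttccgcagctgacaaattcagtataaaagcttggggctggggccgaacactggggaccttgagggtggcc
Fosl2: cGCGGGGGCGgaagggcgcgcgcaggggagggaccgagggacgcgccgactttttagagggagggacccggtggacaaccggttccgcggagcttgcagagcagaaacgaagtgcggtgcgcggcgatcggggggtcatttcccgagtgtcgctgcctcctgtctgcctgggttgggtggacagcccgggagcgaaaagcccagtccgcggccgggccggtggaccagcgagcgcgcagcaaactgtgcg
Egr1: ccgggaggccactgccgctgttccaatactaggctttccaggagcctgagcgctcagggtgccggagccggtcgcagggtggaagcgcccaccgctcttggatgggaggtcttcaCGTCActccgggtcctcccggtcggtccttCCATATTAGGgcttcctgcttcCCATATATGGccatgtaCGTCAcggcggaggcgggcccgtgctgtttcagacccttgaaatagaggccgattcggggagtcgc
Jund: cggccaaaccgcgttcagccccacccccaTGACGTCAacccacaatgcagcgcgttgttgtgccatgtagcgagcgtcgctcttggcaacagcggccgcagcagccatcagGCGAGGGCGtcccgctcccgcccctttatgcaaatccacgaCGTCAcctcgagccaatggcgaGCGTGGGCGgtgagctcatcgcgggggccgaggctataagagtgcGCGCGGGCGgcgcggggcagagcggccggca

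Egr1 held 2 CArG boxes, from 105 to 96 and from 83 to 74 bases upstream of its start, and 2 CRE cores. Egr2 held 1 CArG box, also from 83 to 74 bases upstream, and 1 CRE core. Junb held 1 CRE core, from 155 to 151 bases upstream, and Fosl1 held 2. Jund held the full CRE, from 221 to 214 bases upstream, a separate CRE core from 98 to 94 bases upstream, and 3 EGR sites. Fosl2 held 1 EGR site at the far end of its window. No match to any of these motifs was found in the Fosb window, and none of the 7 windows held the AP-1 site TGANTCA. Among all 33469 rat promoter windows of the same length, a CArG box was found in 1.50%, the full CRE in 1.59%, an EGR site in 4.29%, an AP-1 site in 6.34% and a CRE core in 18.2%. A match is a description of the letters and not a bound site.

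**Figure D1:**
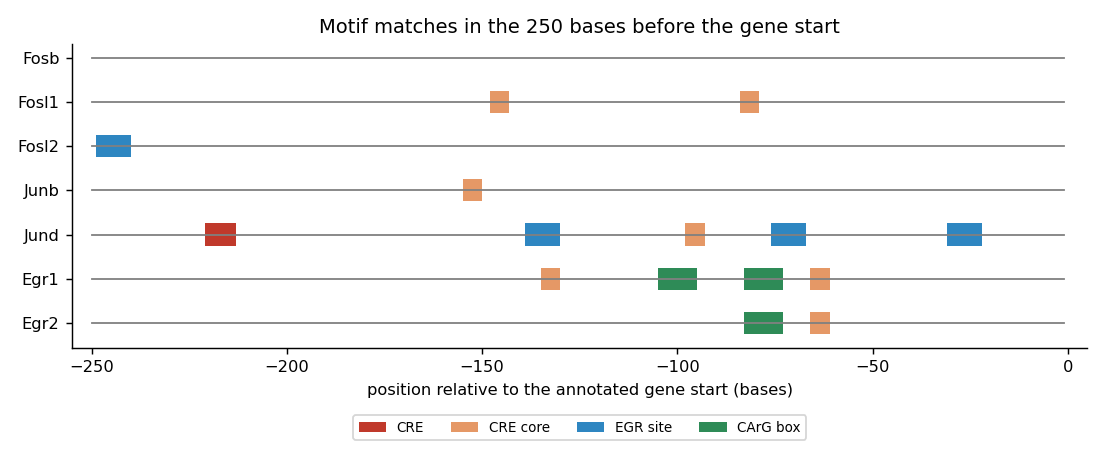
Position of motif matches, in bases relative to the annotated gene start, in the 250 bases before the start of the 7 members with a RefSeq promoter (1 line per gene). The CArG boxes lie in Egr1 and Egr2, and the full CRE in Jund.

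The deposited values are MAS5 signals on a linear scale, and all 4 arrays had a trimmed mean of 125. Background was set at 14.2, the maximum over the 27 probe sets for Bacillus genes, and 64.3% to 66.4% of each array's probe sets exceeded it. Differences are cAMP minus control on the log2(signal + 16) scale, given ± the standard error of limma, and they understate the change of dim genes. A probe set was tested when its mean over the 4 arrays reached the 40th percentile, and it was called at a Benjamini-Hochberg adjusted p under 0.05 over all 18625 tested probe sets. The words rose and fell refer to that threshold. The correlation of log2 signals over the tested probe sets was 0.984 between the cAMP arrays and 0.967 between the control arrays. The actin probe sets gave 3' to 5' ratios, a measure of RNA integrity, of 1.86 and 1.65 on the cAMP arrays, and 1.80 and 2.25 on control replicates 1 and 2.

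The Sertoli cell label was matched by the marker genes: of 11 Sertoli markers on the array none was at background on all arrays, and Clu, which encodes clusterin, lay between 6072 and 7278. Of the 10 tested, 3 rose (Inha by 2.04 ± 0.15, Dhh and Shbg), 2 fell (Gata4, -0.94 ± 0.12, and Aard) and 5 did not pass, Clu among them. A dimmer Gata4 probe set did not pass (0.12 ± 0.24). Rhox5, below the filter, was at background on 2 arrays. Of the germ cell markers, Prm1, Tnp1 and Acrv1 of late stages were at background on every array (3 of 7), while the meiotic gene Sycp3 lay between 1754 and 2340 and did not pass (-0.22 ± 0.14). The summed germ cell signal was 3061 and 2303 with cAMP, and 3269 and 3041 without. The macrophage genes Ptprc, Cd163, C1qa and C1qb (4 of 10) and the endothelial genes Pecam1, Vwf and Emcn (3 of 7) were at background throughout. The macrophage sum was 249 and 277 with cAMP against 254 and 390 without. Cd68 of that list, below the filter, read 28.1 and 45.2 against 4.1 and 6.2. Lyz2 of the same list went the other way, at 26.4 and 27.6 against 47.3 and 108.6. So did Mrc1, at 125.5 and 107.2 against 133.4 and 208. Neither Lyz2 nor Mrc1 passed (limma adjusted p = 0.0751 and 0.232), nor did Cd14 (0.077 ± 0.25). The endothelial sum was 144 and 113 with cAMP against 270 and 188 without. Without Kdr, which fell (-1.23 ± 0.21, limma adjusted p = 0.00972), the other 6 endothelial genes summed to 86.7 and 54.7 against 82.4 and 56.9. The sum of the 8 peritubular myoid markers was 194 and 239 with cAMP and 628 and 469 without, and without Tagln it was 192 and 231 against 283 and 205. Of the 5 myoid markers tested Tagln and Synpo2 fell, and Des rose by 1.15 ± 0.20 (limma adjusted p = 0.0102). Of the 8 Leydig markers Lhcgr, Hsd3b1 and Cyp17a1 were at background throughout, and the list's sum of 3663 and 3112 with cAMP, against 413 and 380 without, was mainly Star. The part of these other cells in the results on the AP-1 and EGR genes was not tested, and fewer cells of a type cannot be told apart from less RNA per cell in bulk samples.

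After 72 h Junb, Fos and Fosl2 were higher with cAMP, and Egr1 was lower. Of the 10 genes, 8 had a tested probe set. With each gene read from its brightest probe set, 3 rose, 1 fell and 4 did not pass (Jun, Jund, Atf3 and Fosl1), while Fosb and Egr2 lay below the filter. Among all 10035 named genes tested the share that rose was 8.27%, the share that fell 7.14%, and the share called in either direction 15.4%. By probe set, 4 of 12 rose and 1 fell, against 7.29% and 6.39% of all tested probe sets. The median log2 difference of the 8 genes was 0.66, beside -0.029 over all named genes tested.

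**Figure D2:**
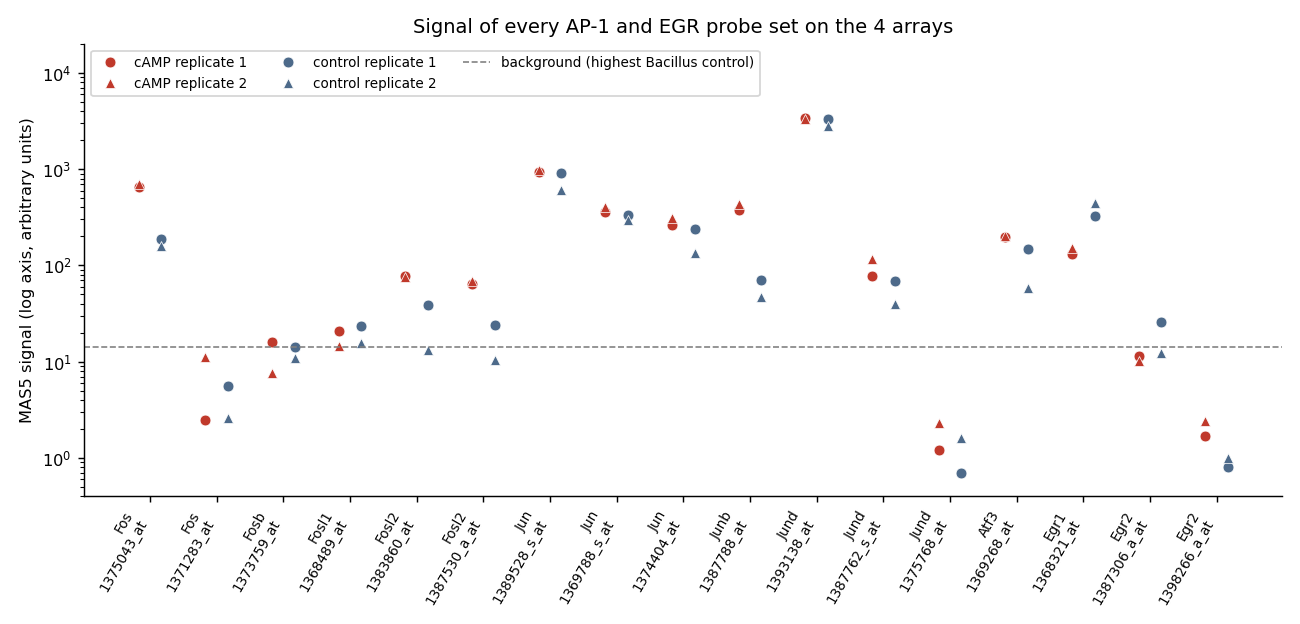
MAS5 signal (log axis) of all 17 probe sets of the 10 genes, with 1 point per array: cAMP left and control right, circles for replicate 1 and triangles for replicate 2. The dashed line is the background of 14.2. The cAMP arrays lie above both control arrays for Junb, the bright Fos probe set and both Fosl2 probe sets, and below both for Egr1, while the dim Fos probe set overlaps at background. They also lie above, without a call, for the 3 Jun probe sets, Atf3 and the dimmer tested Jund probe set. Both Egr2 probe sets, untested and dim, separate too, in opposite directions.

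Junb, a JUN protein that activates transcription more weakly than JUN itself and can oppose it, showed the largest difference of the family. Its probe set read 375.4 and 431.6 on the cAMP arrays, against 71.3 and 47.5 on the control arrays. Both cAMP values stood far above both control values, and every array was above background. The means were 403.5 ± 39.7 with cAMP and 59.4 ± 16.8 without (SD, n = 2 each), a ratio of 6.79. Junb rose by 2.49 ± 0.21 on the log2 scale (limma adjusted p = 0.000428), and it passed with any 1 array left out, at differences from 2.26 to 2.72.

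Fos, the founding partner of JUN in AP-1, has 2 probe sets on the array. The bright probe set read 648.6 and 699.6 with cAMP, and 190.1 and 158.0 without. The groups did not overlap, and each pair of replicates lay close together. The means were 674.1 ± 36.1 with cAMP and 174 ± 22.7 without (SD, n = 2 each), a ratio of 3.87. Fos rose by 1.86 ± 0.16 (limma adjusted p = 0.000453) and passed with any 1 array left out. The other probe set assigned to Fos read 2.5 and 11.3 with cAMP and 5.6 and 2.6 without, at background on all 4 arrays, so it gave no further reading of the gene.

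Fosl2, which encodes the FOS relative FRA2, rose on both of its probe sets. The brighter probe set read 76.9 and 75.2 with cAMP, against 38.6 and 13.3 without. The other read 64.8 and 68.4 with cAMP, against 24.1 and 10.3 without. On both, the cAMP arrays lay close together and above the control arrays, while control replicate 2 was at background, so the size of the change is uncertain. The differences were 1.20 ± 0.30 and 1.35 ± 0.25 (limma adjusted p = 0.0415 and 0.0138). Neither passed when a cAMP array was left out (adjusted p from 0.0999 to 0.215), or without the filter on dim probe sets (adjusted p = 0.117 and 0.0555), and the brighter one also did not pass without control replicate 2 (difference 0.75, adjusted p = 0.0555). Without control replicate 1 the difference of the brighter probe set was 1.65 (adjusted p = 0.00233).

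Egr1, a gene for a zinc-finger protein and a classic target gene of MAP kinase and SRF signalling, moved the opposite way to Junb and Fos. Its probe set read 132.2 and 152.4 with cAMP, and 329.8 and 441.6 without. All 4 arrays were above background and the groups did not overlap. The means were 142.3 ± 14.3 with cAMP and 386 ± 79.1 without (SD, n = 2 each), a ratio of 0.369. Egr1 fell by 1.33 on the log2 scale (-1.33 ± 0.19, limma adjusted p = 0.00433). It did not pass without cAMP replicate 1 (difference -1.24, adjusted p = 0.0615) and passed with each of the other 3 arrays left out.

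Egr2, the relative of Egr1 known for its part in myelination and hindbrain development, could not be compared. Its brighter probe set read 11.5 and 10.2 with cAMP, both at background, against 25.6 and 12.3 without. Its other probe set lay between 0.8 and 2.4 on the 4 arrays. Fosb, the FOS relative known for its long-lived truncated form in brain, read 16.1 and 7.7 with cAMP and 14.1 and 10.8 without, with 1 of 4 arrays above background. These genes were near or below the limit of detection in both groups, so no difference was detectable.

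**Figure D3:**
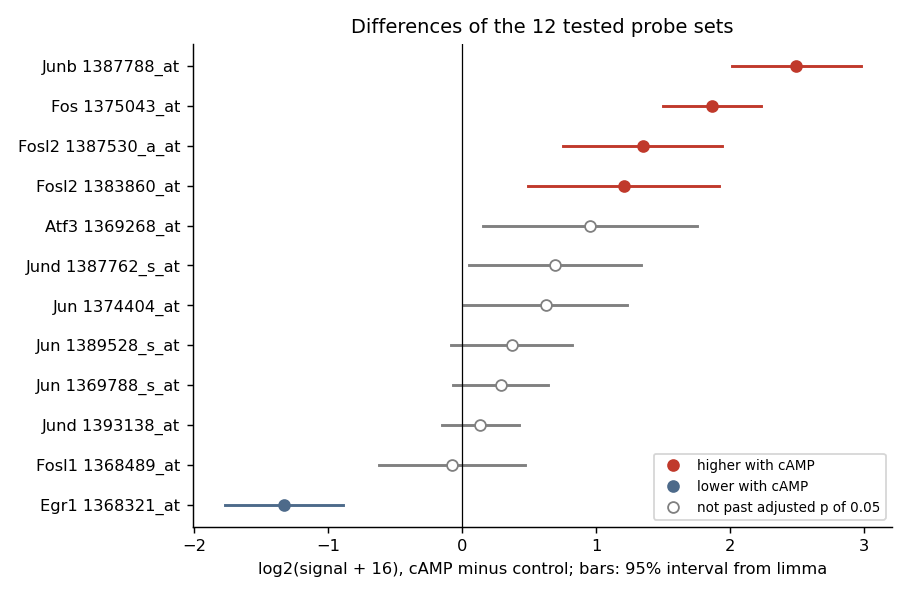
Log2 difference, cAMP minus control, of the 12 tested probe sets with its 95% interval from limma. Filled points passed an adjusted p of 0.05: 4 probe sets of Junb, Fos and Fosl2 on the higher side and Egr1 on the lower side.

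Jun, the central activating subunit of AP-1, did not pass on any of its 3 tested probe sets. The brightest read 937.3 and 986.2 with cAMP, and 906.8 and 605.8 without. The next read 363.0 and 409.1 with cAMP against 330.4 and 297.1 without, and the last 264.0 and 307.5 against 240.2 and 133.2. On all 3 both cAMP arrays lay above both control arrays, by little over control replicate 1. The differences were 0.37 ± 0.19, 0.29 ± 0.15 and 0.62 ± 0.26, with limma adjusted p = 0.267, 0.267 and 0.167. The 95% interval of the brightest ran from -0.086 to 0.82, which leaves out a change of the size seen for Junb or Fos.

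Jund, the constitutive JUN relative, did not pass on either tested probe set. The brightest read 3379 and 3340 with cAMP, against 3344 and 2804 without, and the groups overlapped. The difference was 0.13 ± 0.12 (95% interval from -0.15 to 0.42, limma adjusted p = 0.530). A dimmer probe set of Jund read 77.6 and 115.7 with cAMP and 68.9 and 39.5 without (0.69 ± 0.27, adjusted p = 0.148), and the last of its probe sets lay between 0.7 and 2.3 on the 4 arrays.

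Atf3, a repressor or activator induced by many stresses, read 195.4 and 200.7 with cAMP, and 148.7 and 58.5 without. The cAMP arrays agreed closely, whereas the control arrays differed by a log2 value of 1.14. The difference was 0.95 ± 0.34 (95% interval from 0.15 to 1.75), and it did not pass (limma adjusted p = 0.117). Without control replicate 1 it was 1.52 (adjusted p = 0.00127), and without control replicate 2 it was 0.38 (adjusted p = 0.181).

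Fosl1, which encodes the FOS relative FRA1, read 20.7 and 14.5 with cAMP and 23.4 and 15.7 without, just above background. The groups overlapped, and the difference was -0.079 ± 0.23 (limma adjusted p = 0.860). Its mean log2 value of 5.10 lay at the filter, so it was the dimmest member tested.

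Both cAMP arrays lay above both control arrays on 9 of the 12 tested probe sets and below them on 1. Over all tested probe sets the shares were 27.1% and 31.1%. Control replicate 2 read lower than control replicate 1 on 11 of the 12, Egr1 being the exception. Over all 18625 tested probe sets it read lower on 50.0%. The gap between the control arrays ran from -1.14 for Atf3 to 0.40 for Egr1 on the log2 scale (replicate 2 minus replicate 1), and the gap between the cAMP arrays from -0.27 for Fosl1 to 0.49 for the dimmer tested probe set of Jund. With control replicate 1 left out 5 genes rose (Jun and Atf3 beside the other 3), and with control replicate 2 left out 2 rose (Fos and Junb). With either cAMP array left out 2 genes rose, again Fos and Junb, and the 1 that fell, Egr1, was lost without cAMP replicate 1. Control replicate 2 also had the highest actin ratio, and the part of RNA quality in these differences was not tested. In these fits the group with 1 array was assumed to vary like the other. The number of probe sets called over the whole array also depended on the array left out. It was larger without control replicate 1 and smaller without either cAMP array.

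**Figure D4:**
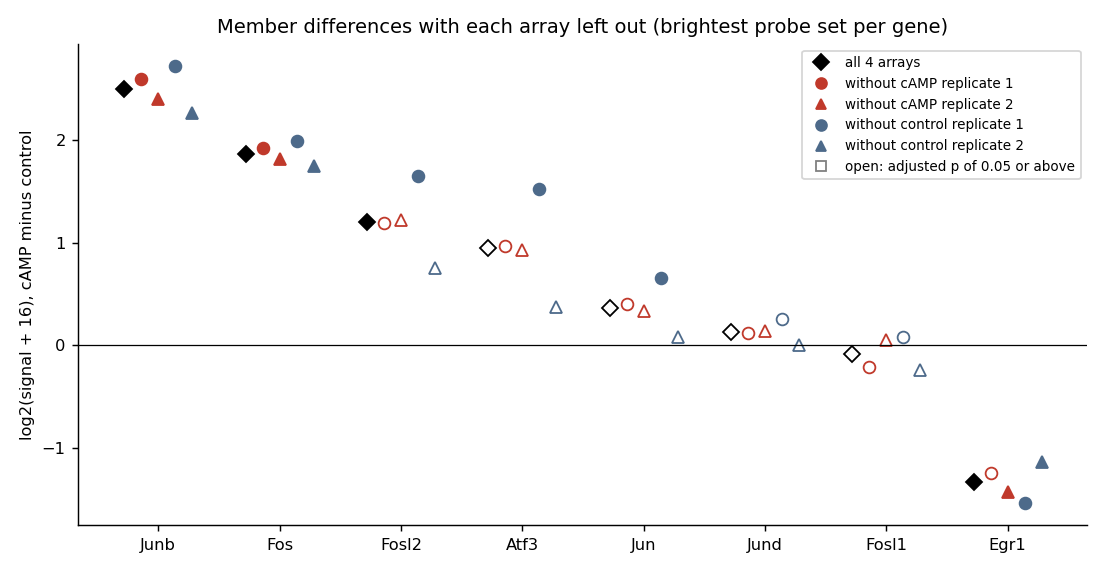
Log2 difference, cAMP minus control, of the 8 tested genes (brightest probe set) with all 4 arrays and with each array left out. Filled symbols passed an adjusted p of 0.05: Junb and Fos did in all 5 fits, and Atf3 and Jun passed without control replicate 1.

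Genes with profiles most like those of the most changed members were found by the Euclidean distance between centred log2 values over the 4 arrays, among 10034 other genes. Nearest to Junb were Angptl8 (distance 0.13), a secreted regulator of lipoprotein lipase, then Idh3a (0.17), a subunit of a citric acid cycle enzyme, Mthfd2 (0.23), an enzyme of mitochondrial folate metabolism, the collagen gene Col18a1 (0.24) and Cotl1 (0.24), which encodes an actin-binding protein. Angptl8 read 193.6 and 203.9 with cAMP and 32.4 and 18.0 without. Nearest to Egr1 were the carboxypeptidase gene Cpm (0.10), LOC102553902 (0.10), the histone demethylase gene Kdm7a (0.11), Rd3l (0.13) and Tmtc1 (0.15). Kdm7a read 468.9 and 480.6 with cAMP and 1048 and 1425 without. With 4 arrays such a distance describes the shape of 2 groups of 2 and no more.

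The other genes around AP-1 and EGR were read from 6 lists of 135 genes, of which 93 were tested. Of these 26 rose, 7 fell and 60 did not pass, 35.5% called against 15.4% of all named genes tested. Leaving out cAMP replicate 1 gave 13 higher and 2 lower, leaving out cAMP replicate 2 gave 15 and 2, without control replicate 1 they were 37 and 6, and without control replicate 2 they were 27 and 13. The lists were chosen with results of these data known, so the counts are descriptions.

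Of 13 bZIP dimer partners of AP-1 5 were tested and limma called 0, too few genes to set against the 15.4% of all named genes, with 1, Mafk, at an unadjusted p under 0.05 (0.0141). Mafk, a small MAF protein without an activation domain, read 154.6 and 156.1 with cAMP and 274.4 and 209.6 without (-0.58 ± 0.18, adjusted p = 0.0798), and it passed without control replicate 2. Batf, Batf2 and Jdp2 were at background on every array.

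Among the EGR relatives 1 of 5 tested genes rose and 4 did not pass, too few genes to set against the 15.4% of all named genes. Nab2, a corepressor of EGR proteins and itself an EGR target, read 437.0 and 396.0 with cAMP, against 189.8 and 156.4 without. The groups did not overlap, and Nab2 rose by 1.20 ± 0.16 (limma adjusted p = 0.00377), while Egr1 fell. Nab2 did not pass without cAMP replicate 1 (adjusted p = 0.0706), and without control replicate 2 the list had 2 higher genes. Nab1, the other corepressor, did not pass (0.40 ± 0.21), nor did Egr4 (-0.24 ± 0.23), and Egr3 lay below the filter.

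Of 18 tested kinases and SRF partners upstream of these genes, 2 rose, 1 fell and 15 did not pass. The share called, 16.7%, was near the 15.4% of all named genes tested. Map2k3, a kinase of the p38 pathway, rose by 1.48 ± 0.24 (limma adjusted p = 0.00799), and Rps6ka5, which encodes the nuclear kinase MSK1, rose by 1.41 ± 0.32 (adjusted p = 0.0267). Srf read 214.0 and 199.4 with cAMP, against 336.7 and 326.7 without, and fell by 0.64 on the log2 scale (adjusted p = 0.0297). A dimmer probe set of Srf read 23.1 and 25.6 with cAMP against 27.5 and 5.0 without and did not pass (0.42 ± 0.34, adjusted p = 0.483). The Srf call was lost without the intensity trend (adjusted p = 0.0521), and that of Rps6ka5 without the filter (adjusted p = 0.0801). None of these 3 passed when either cAMP array was left out, while without control replicate 1 there were 5 higher and 2 lower and without control replicate 2 there were 3 and 1. The ternary complex factor genes Elk1 (0.12 ± 0.21), Elk3 (-0.54 ± 0.19) and Elk4 (-0.15 ± 0.15) did not pass. Rps6ka3 did not pass on its brightest probe set (0.35 ± 0.16, limma adjusted p = 0.197). Its 2 other tested probe sets were called, in directions that are not given here. With each gene read from its probe set of smallest spread, 3 genes of the list rose and 1 fell.

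Of 45 other immediate-early genes tested, 15 rose, 4 fell and 26 did not pass, with a median of 0.31. The share called was 42.2%, beside 15.4% of all named genes tested, whose median was -0.029. The smallest p belonged to Ccn2, a matricellular gene, which read 97.8 and 123.0 with cAMP and 2348 and 1768 without (-4.03 ± 0.19). The nuclear receptor genes Nr4a3 (3.89 ± 0.19) and Nr4a1 (2.80 ± 0.15), the kinase gene Sik1 (1.96 ± 0.17), Ier2 (2.17 ± 0.21) and the zinc-finger gene Klf4 (1.40 ± 0.14) followed, with limma adjusted p from 5.98e-05 to 0.00109 over the 6. The other 3 that fell were Ccn1, a relative of Ccn2 (-1.13 ± 0.27), Gadd45b (-0.75 ± 0.18) and the EGF receptor ligand gene Hbegf (-0.97 ± 0.25). None of these 3 passed without the filter (adjusted p = 0.0928, 0.0719 and 0.122), Gadd45b did not pass without the intensity trend (0.0576), and Hbegf did not pass with a pseudocount of 1 (0.0570) or quantile normalization (0.0540). Of the 19 calls 8 held with any 1 array left out: Ier2, Ccn2, Nr4a1, Nr4a3, Klf4, Gem, Sik1 and Cebpb. Without cAMP replicate 1 there were 8 higher and 1 lower, the same counts without cAMP replicate 2, 20 and 2 without control replicate 1, and 14 and 7 without control replicate 2. Control replicate 2 read lower than control replicate 1 for 35 of these 45 genes, by a median of -0.32 on the log2 scale. Over all tested probe sets it read lower on 50.0%.

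**Figure D5:**
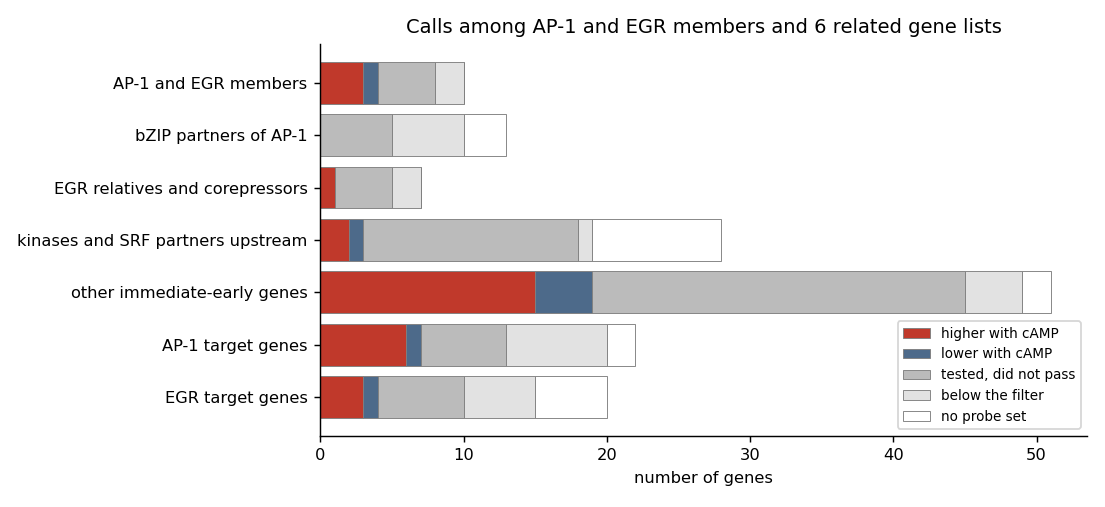
Number of genes in the AP-1 and EGR family and in 6 related lists that were higher with cAMP, lower with cAMP, tested without passing, below the filter on dim probe sets, or without a named probe set. The other immediate-early genes had 15 higher and 4 lower of 45 tested, and the bZIP partners 0 of 5.

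Of 13 known AP-1 targets tested, 6 rose, 1 fell and 6 did not pass, with a median of 0.49. The share called was 53.8%, beside 15.4% of all named genes tested. Timp1, an inhibitor of matrix metalloproteases, read 3015 and 3858 with cAMP and 616.2 and 413.9 without (2.72 ± 0.21). The small proteoglycan gene Dcn rose by 4.17 ± 0.30, with control replicate 1 at background, and the collagen cross-linking gene Lox by 2.10 ± 0.20. Ezr, which encodes the membrane-cytoskeleton linker ezrin, rose by 1.59 ± 0.27. Plaur, the urokinase receptor gene, was at background on both control arrays and at least 5.15-fold higher with cAMP (adjusted p = 0.00489), and the cytokine gene Il6, likewise at background without cAMP, was at least 4.24-fold higher (adjusted p = 0.00774). Plau, which encodes urokinase, read 72.5 and 122.3 with cAMP, against 325.0 and 404.3 without, and fell by 1.77 on the log2 scale (adjusted p = 0.00374). The metalloprotease genes Mmp3, Mmp9, Mmp10, Mmp12 and Mmp13 were at background on every array. Timp1, Plau, Lox and Dcn passed with any 1 array left out. Without cAMP replicate 1 Plaur and Ezr were lost, without cAMP replicate 2 Il6 and Ezr, and the number lower was 3 without control replicate 2.

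Of 10 tested EGR targets 3 rose, 1 fell and 6 did not pass, with a median of 0.27. The share called was 40%, over few genes, beside 15.4% of all named genes tested. Vegfa, which encodes the angiogenic factor VEGF-A, read 281.3 and 293.5 with cAMP and 37.1 and 19.8 without (2.80 ± 0.23, limma adjusted p = 0.000425), and passed with any 1 array left out. Tgfb1 read 163.6 and 106.8 with cAMP and 44.1 and 44.6 without (1.30 ± 0.23). Pdgfa, a growth factor gene, read 89.9 and 102.0 with cAMP and 171.2 and 173.1 without (-0.75 ± 0.17). Nab2 was the third that rose. Without cAMP replicate 1 Vegfa alone passed, and Pdgfa was also lost without cAMP replicate 2 and without the filter (adjusted p = 0.0545).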

How the data were processed

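Total RNA of the 4 cultures was hybridised to one-colour Affymetrix rat arrays. The submitters' processing notes name GCOS and MAS5 as the tools by which the authors made the deposited intensity values; their versions and settings were not stated there. Detection calls and scan dates were not used here. The number of arrays limits the precision.

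From these values log2(signal + 16) was computed, with no further normalization. Probe sets at or above the 40th percentile of the mean log2 value (5.10) were tested, 18625 of 31042, by a two-sided limma fit (limma 3.58.1, R 4.3.3; eBayes moderation used an intensity trend) with Benjamini-Hochberg adjustment over all of them. Of the probe sets with 1 gene symbol, 20766 of 20832 were matched to RefSeq (GRCr8) to update symbols, 436 carried several symbols and 9831 none. Per gene the brightest probe set was used. Where both arrays of a group were at background, the fold is the brighter group's geometric mean over the background signal. The fit was also run on simulated data with independent noise, which does not measure how well it performs on the real arrays.

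The members, the lists and the rule for named genes (all members, up to 6 called genes of each list by p, those needed to describe counts of 5 or fewer, and the 5 nearest profiles) were chosen with earlier results of these data known. Other list genes were named after their values were seen. Alternatives were pseudocounts of 1 and 64, no filter, quantile normalization, no trend, the replicate number as a block, another probe set per gene, and each array left out.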

Additional observations from a re-analysis of the deposited data

How the results depend on the processing

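Junb and Fos stayed higher, past the threshold, under all 10 alternatives run on their values, with adjusted p at most 0.00912 and 0.0119, and Egr1 stayed lower under all of them and past the threshold under all but 1, the fit without cAMP replicate 1. The brighter Fosl2 probe set also lost its call with a pseudocount of 1 (adjusted p = 0.0610) and without the intensity trend (0.0524). Read from the brightest probe sets, 2 members therefore rose there. The other Fosl2 probe set passed in both of these fits (limma adjusted p = 0.0245 and 0.0166). Fosl1, which was never called, changed sign with 1 array left out, over a range from -0.24 to 0.078 (0.054 without cAMP replicate 2 and 0.078 without control replicate 1); the cause was not tested. Without the filter 2 member probe sets rose and 3 other pathway genes fell. Over the whole array 873 probe sets rose and 725 fell there, against 1358 and 1191 with the filter. More probe sets share the adjustment without it, and the standard errors differ too. They were 0.33 against 0.30 with the filter for the brighter Fosl2 probe set, and 0.14 against 0.16 for Fos. The part of each in the lost calls was not tested. With 1 array left out, between 2 and 5 members rose and 0 to 1 fell, 2 to 8 member probe sets rose and 0 to 1 fell, 13 to 37 other pathway genes rose and 2 to 13 fell, and 408 to 2419 probe sets over the array rose and 305 to 2371 fell. Samples of equal replicate number share a number alone in the labels. Their deviations from the group means correlated at 0.16, and with the replicate number as a block 4 members rose, Atf3 being added (adjusted p = 0.0486), 1 fell, and 1540 probe sets rose and 1495 fell. Signal over background limits Fosb, Egr2, Fosl1 and the control values of Fosl2.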
